A study of Mus musculus with 14 samples.

Results

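The 8 genes described here, *Haus1* to *Haus8*, encode the subunits of augmin, also called the HAUS complex. Their transcripts were measured by RNA-seq in full-grown, germinal vesicle (GV)-intact mouse oocytes, a stage at which meiosis I is still held in prophase. The members were chosen by gene symbol, and they are 8 of the 20337 genes with a symbol in the count files. The files hold 10 RefSeq transcripts of these genes among 26495. The transcript with the highest mean count stands for a gene. *Haus8* was singled out by its measured fold changes, which differ between the *Ago2* and the *Dicer* comparisons. Its values in those comparisons are therefore given as a description, without a test.

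The 14 libraries fall into 5 genotypes. The *Ago2* null group has 2 libraries, and *Ago2* fl/fl, *Ago2* ADH, *Dicer* WT and *Dicer* KO have 3 each. A library was a pool of 20 oocytes collected from 3 mice. Females aged 4 to 6 weeks were primed with 5 IU of equine chorionic gonadotropin for 48 h, and cumulus cells were removed by pipetting. *Ago2* fl/fl oocytes carry floxed *Ago2* alleles and were the wild-type controls of the *Ago2* mutants. *Ago2* ADH females carry 1 floxed allele and 1 knock-in allele whose product cannot cleave RNA, so that after Cre excision this is the oocyte's remaining allele. *Ago2* null oocytes lose their floxed alleles. Cre recombinase was driven by the oocyte-specific *Zp3* promoter, so that the somatic cells around the oocyte keep a functional gene. *Dicer* KO oocytes lack the enzyme that makes small RNAs and were compared with *Dicer* WT oocytes. The mice had a mixed background, described as mostly C57BL6, from crosses of 3 transgenic strains. Whether libraries of a group were independent of each other beyond their pools of mice is not given in the sources used here, so the p-values measure the spread between these libraries.

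Augmin binds the side of an existing microtubule and recruits the γ-tubulin ring complex, the template from which new microtubules grow, so that microtubules branch from microtubules. Mouse oocytes have no centrioles and build the meiotic spindle from acentriolar microtubule organizing centres and from such branching nucleation. Within augmin, the products of *Haus2*, *Haus6*, *Haus7* and *Haus8* form the part that contacts the microtubule and the γ-tubulin ring complex. The products of *Haus1*, *Haus3*, *Haus4* and *Haus5* form the elongated remainder.

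Counts on transcripts summed to between 29380403 and 58285057 per library. A read can be counted for more than 1 transcript of a gene, so these sums are not numbers of reads. A floor of 3 counts corresponded to 0.0515 to 0.102 CPM, counts scaled to a library total of 1000000. Every member was above this floor in every library. All 12 oocyte marker genes reached 1 CPM in each group. Their summed level was 18268.5 to 20691 CPM in the *Ago2* groups and lower, 13201 to 13828 CPM, in the *Dicer* groups. The 14 granulosa and cumulus cell markers summed to 79.6 to 86.0 CPM in *Ago2* fl/fl, 63.1 to 70.1 in *Ago2* ADH, 58.9 to 61.1 in *Ago2* null, 97.8 to 105 in *Dicer* WT and 82.1 to 87.1 in *Dicer* KO libraries. Of these 14, 8 or 9 were under 1 CPM in every library of a group. *Cyp19a1*, *Nr5a2* and *Kitl* made up most of the sum, with highest values of 57.7, 40.8 and 5.72 CPM in any library. At a false discovery rate of 1%, the granulosa and cumulus cell markers that passed were all lower in the mutant. They were 3 of 10 tested in *Ago2* ADH (*Cyp19a1*, *Fshr* and *Ptgs2*), 1 of 11 in *Ago2* null (*Cyp19a1*) and 2 of 7 in *Dicer* KO (*Has2* and *Nr5a2*). Among all tested transcripts 20.1%, 19.1% and 17.8% fell. The low markers did not all move the same way. *Foxl2*, which defines granulosa cells, was at 0 in every *Ago2* fl/fl and *Dicer* WT library. It reached 0.128, 0.0762 and 0.143 CPM in *Ago2* ADH, *Ago2* null and *Dicer* KO libraries, close to the floor. *Amhr2* and *Lhcgr* were at 0 in every *Dicer* KO library and reached 0.119 and 0.0715 CPM in *Dicer* WT. The highest *Fshr* value was 1.10 CPM in *Ago2* fl/fl, 0.420 in *Ago2* ADH and 0.661 in *Ago2* null libraries. The tally of alignments that were not unique, in which a read can be counted more than once, also moved with genotype. It equalled 55.7% to 59.7% of the transcript total in *Ago2* fl/fl, 157% to 166% in both *Ago2* mutants, 38.8% to 53.6% in *Dicer* WT and 93.9% to 119% in *Dicer* KO libraries. The part of either shift in the results was not tested. The *Ago2* genotypes were sequenced on separate lanes, and there the lane cannot be told apart from the genotype. *Ago2* itself fell by 0.87 ± 0.088 (SE) in log2 units with the ADH allele (adjusted p = 1.27e-07) and by 1.95 ± 0.13 in null oocytes (adjusted p = 2.21e-09). *Dicer1* rose by 1.26 ± 0.063 in the libraries labelled *Dicer* KO (adjusted p = 6.11e-12). Its count covers the whole transcript and not the deleted part alone, so it does not check that label.

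The sequences before the start sites of *Haus4* and *Haus7* are shown first, because the counts of these genes were higher in the mutant oocytes. The 250 bases before the start annotated by RefSeq (GRCm38.p6) are printed 5′ to 3′. The GENCODE transcript used for positions and lengths starts at the same base for *Haus4*, and 15 bases further upstream for *Haus7*, so that the last 15 bases of that window lie in it. For *Haus8* it starts 344 bases further upstream, which puts the whole window inside the transcript, and that window is not shown. Capitals mark matches, on either strand, to the CCAAT box (CCAAT) and the GC box (GGGCGG). Neighbouring matches can run together.
*Haus4*, chr14:54554362-54554611, minus strand: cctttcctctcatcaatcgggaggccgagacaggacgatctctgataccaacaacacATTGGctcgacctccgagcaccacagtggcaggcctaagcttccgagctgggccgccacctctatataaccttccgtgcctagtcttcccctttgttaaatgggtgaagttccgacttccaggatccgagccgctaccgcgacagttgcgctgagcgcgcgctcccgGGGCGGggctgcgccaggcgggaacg
*Haus7*, chrX:73459030-73459279, minus strand: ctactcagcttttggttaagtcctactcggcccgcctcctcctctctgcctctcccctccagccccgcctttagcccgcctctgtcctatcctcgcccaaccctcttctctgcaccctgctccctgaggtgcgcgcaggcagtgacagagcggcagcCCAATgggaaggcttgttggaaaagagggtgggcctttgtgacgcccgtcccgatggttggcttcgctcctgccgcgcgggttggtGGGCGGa

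The *Haus4* and *Haus7* windows each held 1 match to either motif. The GC box was present in 32.7% and CCAAT in 33.8% of the 32851 RefSeq promoter windows of the same length. Neither the TATA box (TATAAA, in 12.4% of all windows) nor the cell cycle homology region (TTTGAA, in 16.0%) matched in either window. The *Haus4* window held 22 CpG dinucleotides and the *Haus7* window 16, beside a median of 6 over all windows. These matches describe the letters of the windows, which the counts do not bear on directly.

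The levels of the 8 genes differed widely. Levels were put on the scale of CPM divided by transcript length in kilobases (RPKM). Genes can be compared on it as far as the lengths taken hold. The *Ago2* fl/fl mean was highest for *Haus3*, at 109 ± 4.92 (SD, n = 3). *Haus4* followed at 57.8 ± 2.68, *Haus1* at 31.4 ± 4.02, *Haus8* at 30.5 ± 2.24 and *Haus5* at 20.2 ± 0.642 RPKM. *Haus7* had 9.23 ± 1.01, *Haus6* 7.63 ± 0.303 and *Haus2* 0.987 ± 0.417 RPKM. Every neighbouring pair in this order was separated in all 3 libraries except *Haus1* and *Haus8*, which overlapped. The highest mean was 111 times the lowest.

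*Dicer* WT oocytes shared the top and the bottom of that order but not the middle. *Haus3* stood at 167 ± 7.31 (SD, n = 3) and *Haus4* at 32.5 ± 1.05 RPKM. *Haus5* at 15.6 ± 1.53, *Haus1* at 15.3 ± 3.88 and *Haus6* at 13.1 ± 0.954 RPKM overlapped with their neighbours in the order. *Haus7* had 6.56 ± 1.18 RPKM. *Haus8* had 4.0 ± 0.444 RPKM, next to last, and *Haus2* 0.926 ± 0.26. *Haus3* alone made up 65.4% of the summed RPKM of the 8 genes in *Dicer* WT and 40.9% in *Ago2* fl/fl oocytes. *Haus8* made up 1.57% and 11.4%. Lengths were those of matched GENCODE transcripts, whereas reads were counted on RefSeq transcripts. *Haus7* was taken at 1380 bases. Its second transcript in the files, of 1032 bases, had 89.9% to 96.2% of the counts of the one shown, so its level depends on this choice. The *Haus8* level also depends on the transcript length taken, here 2013 bases. On the second transcript in the files, of 1452 bases, it was 42.1 ± 3.1 in *Ago2* fl/fl, above *Haus1* without overlap, and 5.41 ± 0.534 RPKM in *Dicer* WT oocytes (SD, n = 3), where it overlapped *Haus7*.

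**Figure D1:**
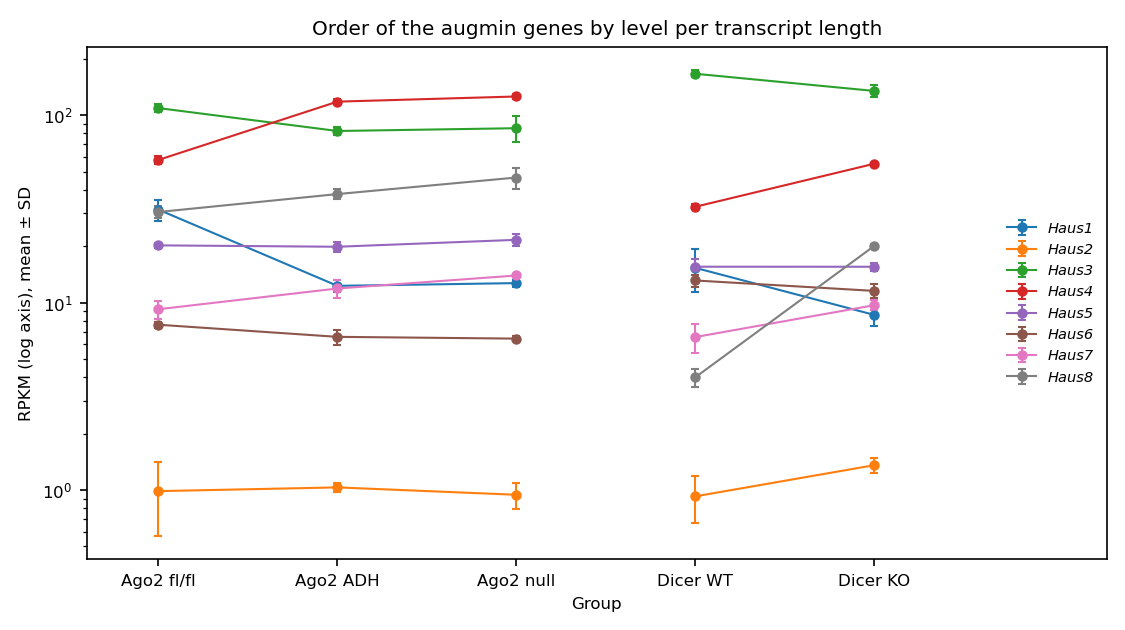
Mean level of each augmin gene in RPKM on a log axis by group, with bars for the SD over 3 libraries (2 in *Ago2* null) and lines joining groups that were compared. In both *Ago2* mutants *Haus4* passes *Haus3*, and *Haus1* falls from above *Haus5* to below it. *Haus8* climbs from 4.0 to 20.1 RPKM between *Dicer* WT and *Dicer* KO.

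In *Ago2* ADH oocytes the order at the top turned, with *Haus4* at 118 ± 3.31 and *Haus3* at 82.4 ± 3.85 RPKM (SD, n = 3), and these did not overlap. *Ago2* null oocytes had 126 ± 3.13 RPKM of *Haus4* and 85.3 ± 13.4 of *Haus3* (SD, n = 2). In *Dicer* KO oocytes *Haus3* remained first at 135 ± 9.36 RPKM and *Haus4* second at 55.1 ± 0.79, followed by *Haus8* at 20.1 ± 0.51 (SD, n = 3). The summed RPKM of the 8 genes was 267 in *Ago2* fl/fl, 290.3 in *Ago2* ADH, 313 in *Ago2* null, 255 in *Dicer* WT and 257 in *Dicer* KO oocytes.

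Whether augmin transcripts depend on AGO2 cleavage activity, on AGO2 itself or on DICER was asked in 3 comparisons, fitted separately across all transcripts. A transcript was called at a false discovery rate of 1%. Of *Haus1* to *Haus7*, the same 4 genes were called in each of the 3 comparisons. *Haus4* and *Haus7* rose, *Haus1* and *Haus3* fell, and the other 3 were not called. In *Ago2* ADH oocytes 2 of 7 rose and 2 of 7 fell, beside 20.5% of all 18835 tested transcripts that rose and 20.1% that fell (40.7% called). In *Ago2* null oocytes the counts were again 2 and 2, beside 18.1% and 19.1% of 19236 transcripts (37.2% called). In *Dicer* KO oocytes they were 2 and 2, beside 16.7% and 17.8% of 18570 transcripts (34.5% called). With 7 genes, 4 calls are not far above these shares. The median log2 fold change of the 7 genes was 0.023 in *Ago2* ADH, -0.032 in *Ago2* null and -0.0045 in *Dicer* KO oocytes, beside 0.0069, 0.0018 and -0.0044 over all tested transcripts. The *Ago2* ADH and *Ago2* null comparisons share their *Ago2* fl/fl libraries, so they are not independent of each other.

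**Figure D2:**
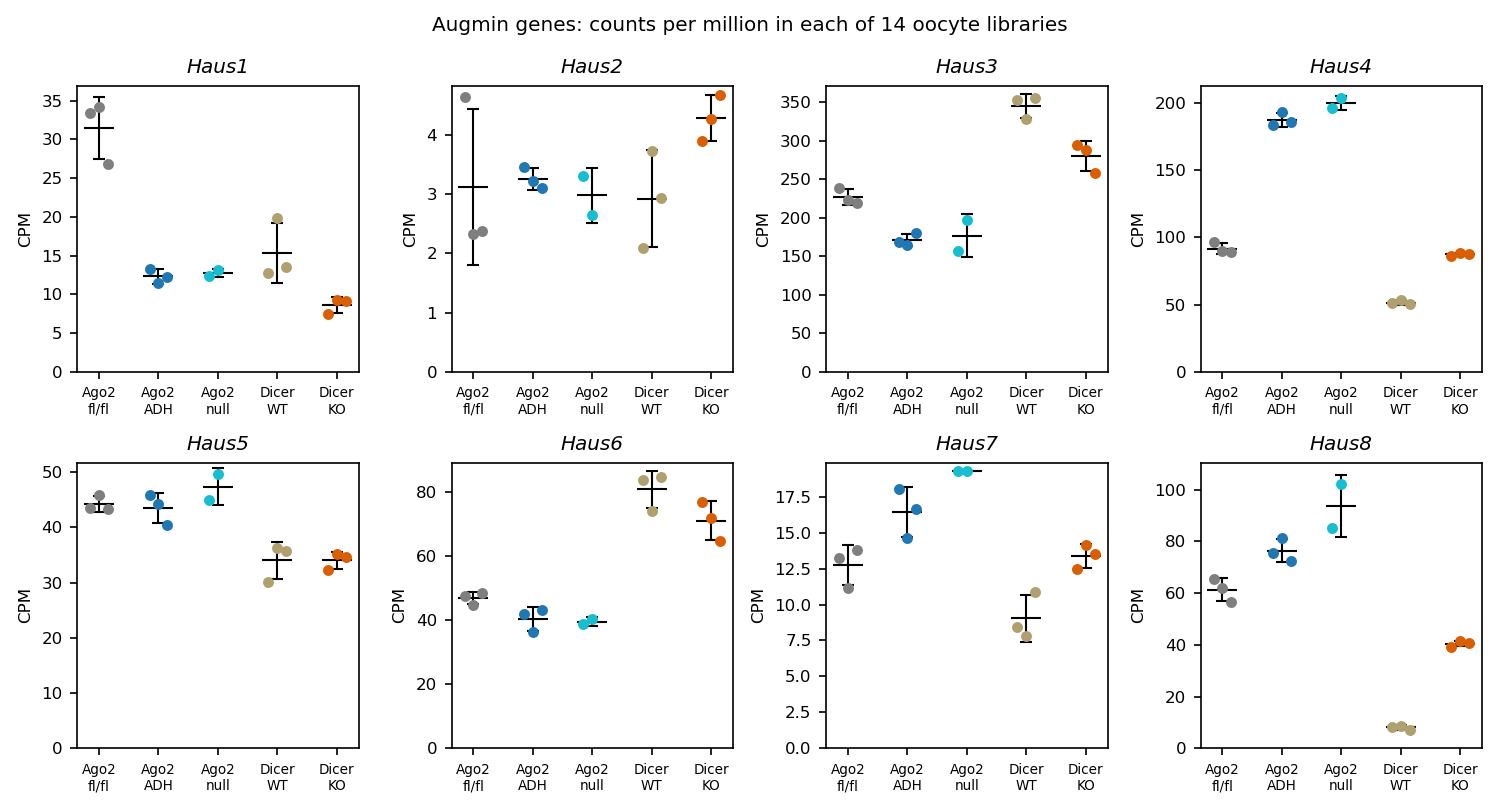
CPM of each augmin gene in each of the 14 libraries (points), with the mean and SD of each group (black bars); every axis starts at 0 and has its own scale. *Haus4* is higher and *Haus1* lower in each mutant group than in its control without overlap, and *Haus8* in *Dicer* WT libraries lies between 7.03 and 8.71 CPM.

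*Haus1* encodes a subunit of the elongated part and lies on chromosome 18 (77757568 to 77767780, minus strand, 9 exons). In *Ago2* fl/fl libraries it had 33.4, 34.1 and 26.8 CPM, beside 13.3, 11.4 and 12.2 in *Ago2* ADH and 12.4 and 13.1 in *Ago2* null. All 5 mutant libraries lay below all 3 controls. Its log2 fold change was -1.30 ± 0.10 (SE) in *Ago2* ADH (adjusted p = 3.61e-09) and -1.27 ± 0.11 in *Ago2* null oocytes (adjusted p = 7.95e-08). The *Dicer* WT libraries had 12.8, 19.9 and 13.5 CPM and the *Dicer* KO libraries 7.41, 9.31 and 9.16. These groups did not overlap either, although the *Dicer* WT libraries were more spread. The log2 fold change was -0.84 ± 0.17 (adjusted p = 4.33e-04). The transcript shares no exonic bases with another annotated gene.

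*Haus4*, another subunit of the elongated part (chr14:54541785-54554361, minus strand, 10 exons), had the largest rise among *Haus1* to *Haus7* in all 3 comparisons. It had 96.6, 89.7 and 88.8 CPM in *Ago2* fl/fl, 183, 194 and 186 in *Ago2* ADH and 196 and 203 in *Ago2* null libraries. The rise was 1.08 ± 0.051 (SE) on the log2 scale in *Ago2* ADH (adjusted p = 1.83e-12) and 1.16 ± 0.06 in *Ago2* null oocytes (adjusted p = 8.83e-11). The *Dicer* WT libraries had 51.2, 53.4 and 50.1 CPM and the *Dicer* KO libraries 86.1, 88.4 and 88.0. This is a log2 fold change of 0.76 ± 0.069 (adjusted p = 3.61e-08). Within each group the libraries were close together, with no overlap between a mutant and its control. The *Dicer* KO level was nearly that of *Ago2* fl/fl oocytes, since *Dicer* WT oocytes started lower.

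*Haus3*, the member with the highest level in both control groups and a subunit of the elongated part (chr5:34153880-34169527, minus strand, 5 exons), fell by less. Its CPM was 238, 222 and 219 in *Ago2* fl/fl, 169, 164 and 180 in *Ago2* ADH, and 157 and 197 in *Ago2* null libraries. The *Ago2* null libraries were further apart than those of the other groups. The log2 fold change was -0.36 ± 0.052 (SE) in *Ago2* ADH (adjusted p = 1.23e-05) and -0.33 ± 0.077 in *Ago2* null oocytes (adjusted p = 0.00223). The *Ago2* null call was lost without *Ago2* null replicate 1 (-0.17, adjusted p = 0.0514) and without *Ago2* fl/fl replicate 2 (-0.33, adjusted p = 0.0102). *Dicer* WT libraries had 352, 328 and 355 CPM and *Dicer* KO libraries 294, 287 and 257, a log2 fold change of -0.31 ± 0.064 (adjusted p = 6.34e-04). The *Haus3* transcript shares 108 exonic bases, 5.21% of its length, with *Poln*, a DNA polymerase gene on the same strand. *Poln* rose by 1.31 ± 0.13 in *Ago2* ADH, by 1.35 ± 0.14 in *Ago2* null and by 0.51 ± 0.14 in *Dicer* KO oocytes (adjusted p = 1.31e-07, 6.07e-07 and 0.00529), against the direction of *Haus3*.

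*Haus5*, the last subunit of the elongated part, was called in none of the 3 comparisons. Its CPM ranged from 43.3 to 45.8 in *Ago2* fl/fl, 40.4 to 45.8 in *Ago2* ADH, 45.0 to 49.7 in *Ago2* null, 30.2 to 36.2 in *Dicer* WT and 32.3 to 35.2 in *Dicer* KO libraries. The groups overlapped in each comparison. The 95% interval of the log2 fold change was -0.12 to 0.17 in *Ago2* ADH, -0.032 to 0.29 in *Ago2* null and -0.20 to 0.19 in *Dicer* KO oocytes. An annotated processed transcript, *Gm21982*, covers 81.9% of the *Haus5* transcript on the same strand, so reads of these cannot be told apart.

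*Haus7* was the member of the microtubule-contacting part, *Haus8* aside, that was called (chrX:73437315-73459044, minus strand, 10 exons). It had 13.3, 11.1 and 13.8 CPM in *Ago2* fl/fl, 18.1, 14.6 and 16.6 in *Ago2* ADH and 19.3 in both *Ago2* null libraries. The lowest *Ago2* ADH library was just above the highest control. The rise was 0.42 ± 0.11 (SE) on the log2 scale in *Ago2* ADH (adjusted p = 0.00411) and 0.63 ± 0.11 in *Ago2* null oocytes (adjusted p = 1.75e-04). *Dicer* WT libraries had 8.43, 7.82 and 10.9 CPM and *Dicer* KO libraries 12.5, 14.1 and 13.5, a log2 fold change of 0.56 ± 0.15 (adjusted p = 0.00451). The groups did not overlap. The *Ago2* ADH call was lost without *Ago2* fl/fl replicate 2 (adjusted p = 0.0322), *Ago2* ADH replicate 1 (0.0359) or *Ago2* ADH replicate 3 (0.0148). The *Dicer* KO call was lost without *Dicer* WT replicate 1 (adjusted p = 0.0212) or 2 (0.0352), or *Dicer* KO replicate 2 (0.0231) or 3 (0.0113). The log2 fold change stayed between 0.33 and 0.50 in *Ago2* ADH and between 0.46 and 0.71 in *Dicer* KO oocytes when 1 library was left out.

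*Haus6*, whose product recruits the γ-tubulin ring complex through NEDD1, was not called in any of the 3 comparisons, although its means were lower in each mutant. Its CPM ranged from 44.9 to 48.4 in *Ago2* fl/fl, 36.2 to 43.1 in *Ago2* ADH, 38.7 to 40.5 in *Ago2* null, 74.1 to 84.7 in *Dicer* WT and 64.6 to 76.9 in *Dicer* KO libraries. Both *Ago2* mutants lay below the *Ago2* fl/fl libraries, whereas the *Dicer* groups overlapped. The log2 fold change was -0.17 ± 0.076 (SE) in *Ago2* ADH (adjusted p = 0.0734), -0.22 ± 0.075 in *Ago2* null (adjusted p = 0.0248) and -0.19 ± 0.079 in *Dicer* KO oocytes (adjusted p = 0.0594).

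*Haus2* was the lowest member, with 81 to 269 counts per library, and its fold changes were the least certain. Its CPM was 4.63, 2.33 and 2.38 in *Ago2* fl/fl, 3.1 to 3.46 in *Ago2* ADH, 2.65 to 3.31 in *Ago2* null, 2.10 to 3.73 in *Dicer* WT and 3.90 to 4.68 in *Dicer* KO libraries. The *Dicer* groups did not overlap, and the *Ago2* groups did. The log2 fold change was 0.55 ± 0.24 (SE) in *Dicer* KO oocytes, with an adjusted p of 0.0653. The 95% interval was -0.37 to 0.60 in *Ago2* ADH and -0.61 to 0.55 in *Ago2* null oocytes. Without *Ago2* fl/fl replicate 1, the library with the highest value, the *Ago2* ADH value was 0.51 and the *Ago2* null value 0.37, and neither was called. The transcript shares 138 exonic bases, 4.38% of its length, with *Lrrc57*, a gene on the opposite strand that had group means of 39.3 to 60.9 CPM. Reads in that stretch cannot be assigned to either gene without strand.

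**Figure D3:**
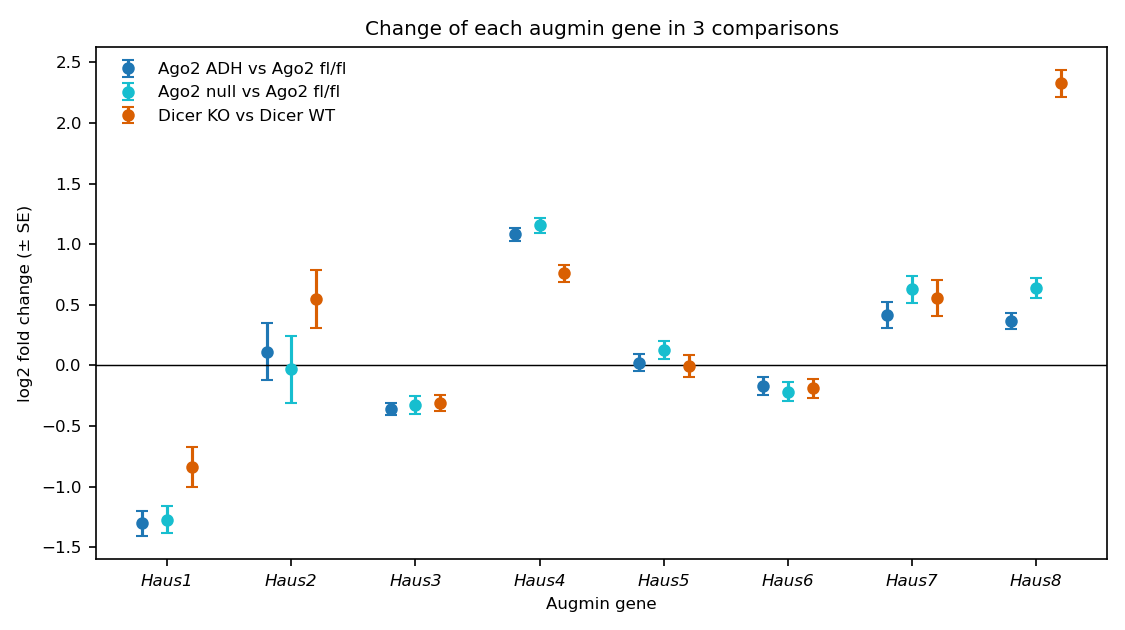
Log2 fold change of each augmin gene in the 3 comparisons, with bars for the standard error. *Haus1*, *Haus3*, *Haus4* and *Haus7* keep their direction in all 3, *Haus2* has the widest bars, and the *Haus8* value of 2.33 in *Dicer* KO lies above its 0.37 and 0.64.

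*Haus8* encodes the subunit whose end binds the microtubule (chr8:71251125-71272934, minus strand, 11 exons). It had 65.5, 62.0 and 56.5 CPM in *Ago2* fl/fl, 75.6, 81.3 and 72.4 in *Ago2* ADH and 85.3 and 102 in *Ago2* null libraries. These 3 groups did not overlap. The log2 fold change was 0.37 ± 0.064 (SE) for *Ago2* ADH and 0.64 ± 0.081 for *Ago2* null. *Dicer* WT libraries had 8.41, 8.71 and 7.03 CPM and *Dicer* KO libraries 39.3, 41.4 and 40.6. Here the log2 fold change was 2.33 ± 0.11, a 5.01-fold difference. The *Ago2* ADH effect minus the *Dicer* KO effect was -2.01 ± 0.12 on the log2 scale. These are the values for which the gene was singled out. The second *Haus8* transcript in the files had 96.3% to 99.8% of the counts of the one shown in each library, so they are not independent measurements.

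The control groups differed more in *Haus8* than the mutants did. Its mean CPM in *Ago2* fl/fl was 7.62 times that in *Dicer* WT oocytes, and the *Dicer* KO mean was 0.66 times that of *Ago2* fl/fl. So the *Dicer* KO libraries, although higher than *Dicer* WT, lay below all *Ago2* libraries. *Haus1* and *Haus4* were also higher in *Ago2* fl/fl, 2.05 and 1.78 times, and *Haus3* and *Haus6* lower, 0.656 and 0.581 times. *Haus7*, *Haus5* and *Haus2* had ratios of 1.41, 1.30 and 1.07. Among 11767 genes with a mean of at least 1 CPM in either control group, 106 (0.901%) differed between these groups by as much as *Haus8*, and 971 (8.25%) by as much as *Haus1*. The median absolute log2 difference over these genes was 0.34. The comparison is a description chosen after the values were seen. The *Ago2* and *Dicer* series differ in mouse crosses and sequencing lanes, and these cannot be told apart from the genotypes. The paper also lists separate alignment settings for reads of different lengths, and it does not state which libraries had which. A part of read length in the difference was not tested.

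**Figure D4:**
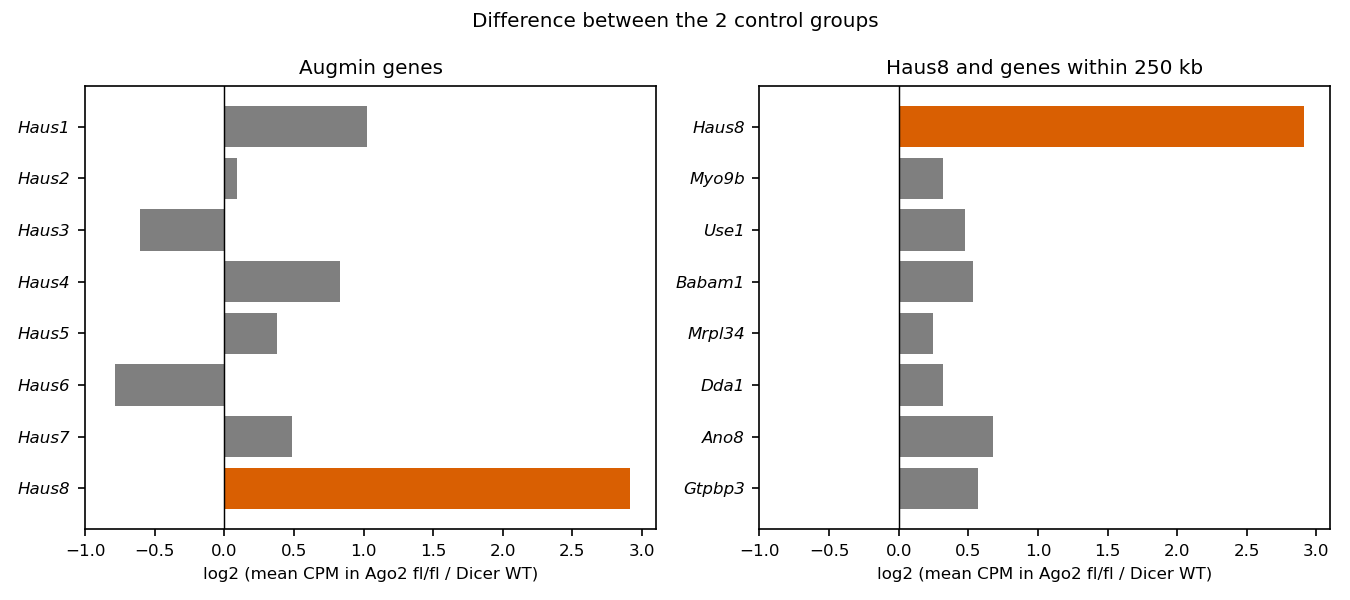
Log2 ratio of the mean CPM in *Ago2* fl/fl to that in *Dicer* WT oocytes, for the augmin genes (left) and for *Haus8* and the expressed genes within 250 kb of it in chromosomal order (right). *Haus8* stands at 2.91 and its 7 neighbours lie between 0.25 and 0.68.

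The neighbours of *Haus8* on chromosome 8 differed in the same direction, but by less. Within 250 kb, 7 other genes reached the same minimum level, namely *Myo9b*, *Use1*, *Babam1*, *Mrpl34*, *Dda1*, *Ano8* and *Gtpbp3*, which were looked at after the *Haus8* values were known. All 7 lie on the side of higher coordinates. Their log2 ratio of *Ago2* fl/fl to *Dicer* WT ranged from 0.25 to 0.68, against 2.91 for *Haus8*. Over the genes compared the median was 0.049 and the median absolute value 0.34, so neighbours differed by amounts common among all genes. The largest ratios were those of *Ano8* and *Gtpbp3*, at low levels of 1.91 and 1.07 CPM in *Ago2* fl/fl and 1.15 and 0.69 CPM in *Dicer* WT oocytes. The log2 fold change of the 7 neighbours in *Dicer* KO oocytes ranged from 0.029 to 0.79, against 2.33 for *Haus8* and a median of -0.0044 over all tested transcripts. A part of the region in the *Haus8* difference was not tested. *Myo9b*, an unconventional myosin gene that runs from the other strand, shares 116 exonic bases with the *Haus8* transcript, 5.76% of its length, and reads were counted without regard to strand. *Myo9b* had a mean of 28.3 CPM in *Dicer* WT and 29.1 CPM in *Dicer* KO oocytes, a log2 fold change of 0.035 ± 0.095 (SE, adjusted p = 0.792).

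The genes whose 3 fold changes were nearest to those of *Haus8*, among 10218 genes averaging 100 or more normalized counts, were *Ramp2*, *Zfp809*, *Man2a2*, *Slc1a7* and *Ube2r2*. The distance was Euclidean over the log2 fold changes of the 3 comparisons, from 0.24 for *Ramp2* to 0.73 for *Ube2r2*. *Ramp2* encodes a receptor activity-modifying protein and had log2 fold changes of 0.34 in *Ago2* ADH, 0.58 in *Ago2* null and 2.10 in *Dicer* KO oocytes. *Zfp809*, a zinc finger gene known for silencing retroviral DNA, had 0.55, 0.74 and 2.08. None of the 5 had a ratio between the control groups as large as that of *Haus8*. Only 0.901% of 11767 genes differed by as much, so nothing about the 5 is read from this count. The mean in *Ago2* fl/fl and *Dicer* WT oocytes was 1.95 and 1.24 CPM for *Ramp2*, 4.51 and 4.35 for *Zfp809*, and 16.8 and 9.55 for *Ube2r2*. It was 2.95 and 1.46 CPM for *Man2a2*, and 0.676 and 1.77 for *Slc1a7*, in the other direction.

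A catalytically inactive AGO2 and the loss of AGO2 were compared directly. None of the 8 augmin genes was called between *Ago2* ADH and *Ago2* null oocytes by edgeR or by DESeq2, beside 0.119% of 19306 tested transcripts. At an unadjusted p under 0.05 there was 1 of 8, beside 1931 of 19306 transcripts, and this 1 was *Haus8*. It was 0.30 ± 0.081 (SE) lower on the log2 scale in *Ago2* ADH than in *Ago2* null oocytes, with an adjusted p of 0.18, a 95% interval of -0.47 to -0.13, and the 3 *Ago2* ADH libraries below both *Ago2* null libraries. Over the alternatives this adjusted p ranged from 0.047 to 0.96. The *Ago2* ADH and *Ago2* null libraries also entered the values for which *Haus8* was singled out. Its p-values here are therefore no independent test. *Haus7* had an interval of -0.47 to 0.0095 and *Haus4* of -0.22 to 0.034. For *Haus1* it was -0.31 to 0.21.

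Whether the *Ago2* ADH effect differed from the *Dicer* KO effect was tested as an interaction for *Haus1* to *Haus7*. None of the 7 was called by edgeR, beside 3.55% of 19500 transcripts. An unadjusted p under 0.05 was found for 2 of the 7, beside 4550 of 19500 transcripts. *Haus4* rose by 0.27 ± 0.08 (SE) more in *Ago2* ADH than in *Dicer* KO oocytes on the log2 scale (adjusted p = 0.0388). It was called by DESeq2 (0.30, adjusted p = 0.00361) and with scaling by library totals alone (0.34, adjusted p = 0.00861). Over all alternatives its adjusted p ranged from 0.00361 to 0.106. *Haus1* fell by more in *Ago2* ADH, with a difference of -0.52 ± 0.20, which was not called (adjusted p = 0.119). For *Haus3*, *Haus5* and *Haus6* the 95% intervals of the difference were -0.28 to 0.07, -0.26 to 0.21 and -0.26 to 0.20. They were wider for *Haus7*, -0.58 to 0.19, and for *Haus2*, -1.21 to 0.24.

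The γ-tubulin ring complex, which augmin recruits, was read from a list of 10 genes. In *Ago2* ADH oocytes 2 rose, 1 fell and 7 were not called, with a median log2 fold change of 0.13. In *Ago2* null oocytes 1 rose and 1 fell, with a median of 0.069, and in *Dicer* KO oocytes 1 fell, with a median of 0.16. None was called between *Ago2* ADH and *Ago2* null oocytes by edgeR or by DESeq2, beside 0.119% of 19306 transcripts. None had an unadjusted p under 0.05 there, beside 1931 of 19306 transcripts. Against the controls, the calls were no denser than among all transcripts (40.7%, 37.2% and 34.5%). *Tubgcp5*, a component of the ring's wall, fell in all 3 comparisons, with log2 fold changes of -0.48 ± 0.088, -0.70 ± 0.095 and -0.61 ± 0.094 (SE) in *Ago2* ADH, *Ago2* null and *Dicer* KO oocytes (adjusted p = 1.62e-04, 1.35e-05 and 3.39e-05). *Tubg2*, a γ-tubulin gene, rose by 0.34 ± 0.057 in *Ago2* ADH oocytes (adjusted p = 5.36e-05). Its value was 0.20 ± 0.065 in *Ago2* null (adjusted p = 0.0194) and 0.026 ± 0.068 in *Dicer* KO oocytes (adjusted p = 0.781), neither of them called. *Tubgcp4*, also of the ring, rose by 0.66 ± 0.19 in *Ago2* ADH (adjusted p = 0.00683) and 0.83 ± 0.21 in *Ago2* null oocytes (adjusted p = 0.00315), and had 0.56 ± 0.22 in *Dicer* KO oocytes without a call (adjusted p = 0.0421). The *Tubgcp4* call in *Ago2* ADH was lost without any 1 of *Ago2* fl/fl replicates 2 and 3 and *Ago2* ADH replicates 1, 2 and 3 (adjusted p = 0.0403, 0.0206, 0.0136, 0.0107 and 0.0329). That in *Ago2* null was lost without *Ago2* fl/fl replicate 2 or 3 or *Ago2* null replicate 2 (adjusted p = 0.0156, 0.0116 and 0.0273). *Nedd1*, the adaptor between augmin and the ring, was not called in any comparison. Its log2 fold change was -0.021 ± 0.058 in *Ago2* ADH, -0.078 ± 0.060 in *Ago2* null and 0.23 ± 0.069 in *Dicer* KO oocytes (adjusted p = 0.778, 0.299 and 0.0112). The *Dicer* groups did not overlap, at 132 to 150 CPM in WT and 152 to 176 CPM in KO libraries. For the interaction the difference was -0.30 ± 0.093 (adjusted p = 0.0459).

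**Figure D5:**
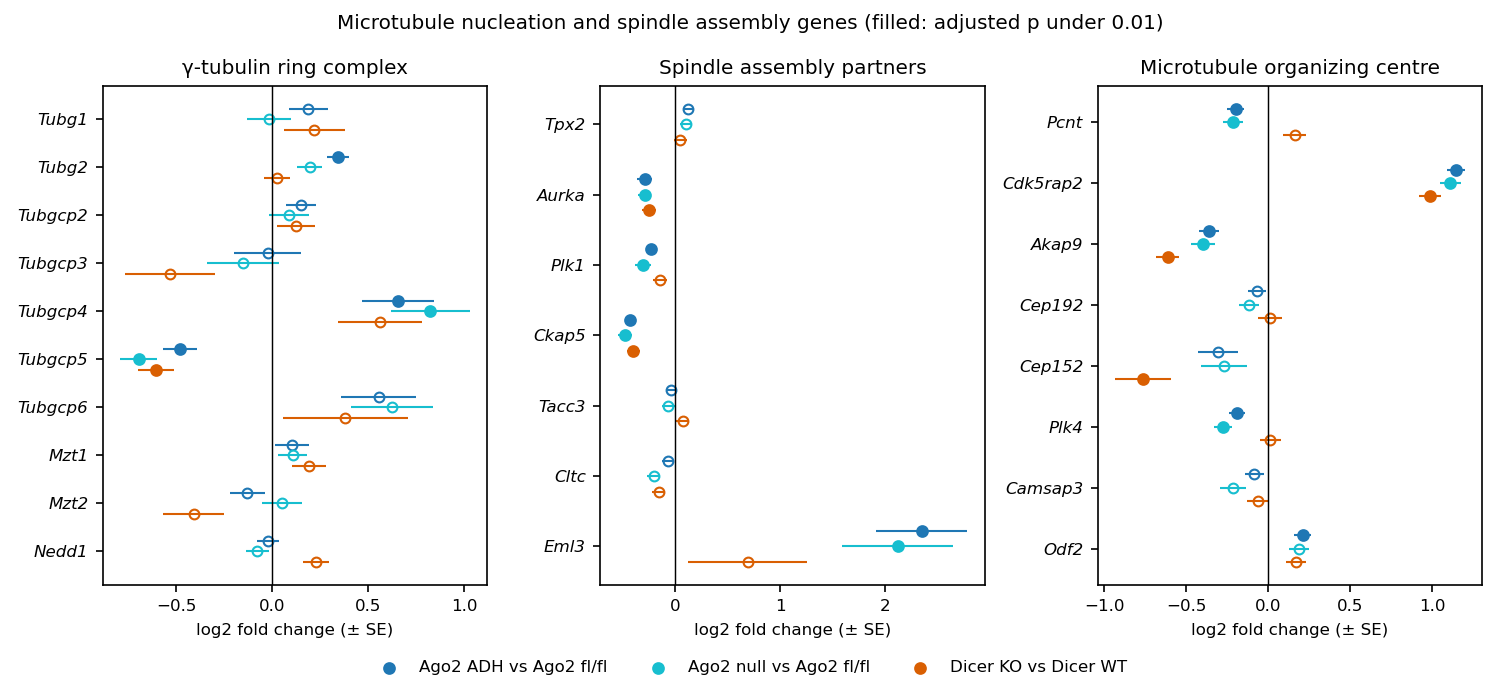
Log2 fold change with its standard error for 10 γ-tubulin ring complex genes, 7 spindle assembly partners and 8 genes of acentriolar microtubule organizing centres, in the 3 comparisons. Filled points passed the 1% threshold, as *Tubgcp5*, *Ckap5*, *Cdk5rap2* and *Akap9*, among others, did in all 3.

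The shares called among all transcripts, 40.7%, 37.2% and 34.5%, are also the background of these lists, and with 7 or 8 genes no excess is read from the counts. Of 7 spindle assembly partners, 1 rose and 3 fell in *Ago2* ADH (median log2 fold change -0.073), 1 rose and 3 fell in *Ago2* null (median -0.21), and 2 fell in *Dicer* KO oocytes (median -0.15). *Ckap5*, a microtubule polymerase, fell by 0.43 ± 0.057 (SE), 0.48 ± 0.065 and 0.40 ± 0.063 on the log2 scale (adjusted p = 4.28e-06, 1.21e-05 and 4.20e-05). *Eml3*, whose product was described as recruiting augmin to microtubules, rose by 2.35 ± 0.43 in *Ago2* ADH (adjusted p = 1.61e-04) and 2.12 ± 0.53 in *Ago2* null oocytes (adjusted p = 0.00313). Without *Ago2* null replicate 1 or 2 the second call was lost (adjusted p = 0.0487 and 0.014). In *Dicer* KO oocytes its value was 0.69 ± 0.57 and not called (adjusted p = 0.34). Of 8 genes of acentriolar organizing centres, 2 rose and 3 fell in *Ago2* ADH, 1 rose and 3 fell in *Ago2* null, and 1 rose and 2 fell in *Dicer* KO oocytes, with medians of -0.14, -0.22 and 0.011. *Cdk5rap2*, which anchors and activates γ-tubulin rings, rose by 1.14 ± 0.053, 1.11 ± 0.062 and 0.99 ± 0.067 (adjusted p = 1.48e-12, 2.76e-10 and 6.62e-10). *Akap9*, a scaffold of such centres, fell by 0.36 ± 0.062, 0.40 ± 0.073 and 0.61 ± 0.072 (adjusted p = 8.27e-05, 2.51e-04 and 1.18e-06).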

How the data were processed

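RNA-seq had been performed on 14 libraries of 20 GV-intact oocytes. The authors amplified cDNA from lysates (NuGEN Ovation V2), aligned reads with TopHat (version 2.0.7 in the submitters' processing notes) to mm10 with up to 100 alignments per read, and ran htseq-count, unstranded and in intersection-strict mode, on RefSeq transcripts. The values the authors deposited are raw counts per transcript. Amplified reads are not independent molecules, so the floor of 3 counts covers counting error only.

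Symbols came from RefSeq (26081 IDs) and GENCODE (113 IDs), and 301 IDs had none. Tallies of reads outside transcripts were left out of library sizes. Each comparison was fitted on its own libraries with edgeR 4.0.16 in R 4.3.3 (filterByExpr, minimum count 10 and total 15, TMM, quasi-likelihood test, Benjamini-Hochberg adjustment, FDR 1%). The standard error is the absolute log2 fold change divided by the square root of F. CPM and RPKM used TMM factors over all 14 libraries. On counts simulated for *Ago2* ADH against *Ago2* fl/fl (18835 transcripts), 200 transcripts were changed by 1 log2 unit up or down. Of these, 150 were recovered, with 5 false calls. For *Ago2* null, *Dicer* KO and *Ago2* ADH against *Ago2* null, 135, 138 and 138 of 200 were recovered, with 3, 0 and 0 false calls. More transcripts were called in the data, and some members changed by less, so these rates need not hold there.

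Promoter windows of the other members are not reported here. The members and gene lists were chosen with earlier results of these data known. Genes named were the 8 members, *Ago2*, *Dicer1*, called genes of the γ-tubulin ring complex list, at most the 2 largest changes per direction of the other lists, the 5 genes nearest *Haus8* and genes overlapping a member. Alternatives were DESeq2 1.42.0, RLE or library-total scaling, other filters, an FDR of 5%, 1 transcript per gene, other transcripts, all 5 groups in one fit, a replicate block and leaving out each library. Libraries of a group were compared by chi-square, and none agreed within sampling noise (6.54 to 14.9 per degree of freedom).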

Additional observations from a re-analysis of the deposited data

Results flagged for a closer look

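*Pcnt*, the gene of pericentrin, a scaffold of microtubule organizing centres, was the 1 gene among *Haus1* to *Haus7* and the 3 lists whose *Ago2* ADH effect differed from its *Dicer* KO effect by the interaction test. Among all 19500 tested transcripts 3.55% were called by this test, and no excess is read from the 1 call. The difference for *Pcnt* was -0.41 ± 0.092 (SE) on the log2 scale (adjusted p = 0.00617). *Ago2* fl/fl libraries had 343, 315 and 305 CPM and *Ago2* ADH libraries 268, 285 and 258. *Dicer* WT libraries had 230, 246 and 265 CPM and *Dicer* KO libraries 299, 276 and 255, and these overlapped. Without each library in turn the difference ranged from -0.47 to -0.35, and 8 of 12 such fits lost the call, with adjusted p-values of up to 0.0241 (without *Ago2* fl/fl replicate 1). The call was also lost with RLE size factors (-0.38, adjusted p = 0.013) and with the replicate number as a block (-0.41, adjusted p = 0.0188).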

How the results depend on the processing

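The 4 calls among *Haus1* to *Haus7* in *Ago2* ADH, *Ago2* null and *Dicer* KO oocytes numbered 3 or 4 without each library in turn, and every alternative kept the directions of *Haus1*, *Haus3*, *Haus4* and *Haus7* in these comparisons. The 84 alternative values of *Haus8* kept their sign, and those without a test moved by less than the spread between replicates. The interaction gave 1 called augmin gene, *Haus4*, with library totals, with an FDR of 5% and with DESeq2, and 0 without each library in turn. *Haus7* was not called in *Ago2* ADH with all 5 groups in one fit (adjusted p = 0.0161) and in *Dicer* KO with library totals (adjusted p = 0.0105), while *Haus6* was called in *Dicer* KO with library totals (adjusted p = 0.00833). The cause was not tested.

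The γ-tubulin ring complex count in *Ago2* null was 4 at an FDR of 5% and 1 to 3 without each library. In *Dicer* KO it was 2 with at least 10 counts in every library, 4 at an FDR of 5%, 3 with all 5 groups in one fit, 2 with DESeq2 and 1 to 2 without each library.

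Signs turned in values near 0. For *Haus5* they were -0.022 (library totals) and -0.024 (all 5 groups) in *Ago2* ADH, 0.0021 (RLE), 0.0034 (at least 10 counts) and 0.0020 (DESeq2) in *Dicer* KO, and 0.0063 (RLE), 0.043 (library totals) and 0.0065 (DESeq2) for the interaction. With library totals *Haus6* had 0.039 for the interaction and *Tubg2* -0.035 in *Dicer* KO. Without each library in turn, *Haus5* ranged from -0.027 to 0.064 in *Ago2* ADH, -0.086 to 0.034 in *Dicer* KO and -0.065 to 0.054 for the interaction, *Haus2* from -0.059 to 0.51 in *Ago2* ADH and -0.20 to 0.37 in *Ago2* null, *Haus6* from -0.097 to 0.044 for the interaction, and *Tubg2* from -0.0098 to 0.048 in *Dicer* KO. Between *Ago2* ADH and *Ago2* null the ranges were -0.11 to 0.0099 for *Haus1*, -0.024 to 0.31 for *Haus2*, -0.20 to 0.12 for *Haus3* and -0.023 to 0.11 for *Haus6*.

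Same-numbered libraries did not deviate together, with correlations of 0.019 to 0.034 for *Ago2* ADH, -0.068 and -0.042 for *Ago2* null and -0.14 to 0.038 for *Dicer* KO, so the numbers were not taken as pairs. With the replicate number as a block the counts of called augmin genes were 4, 4, 4, 0 and 0 and those of the ring complex 3, 2, 1 and 0, as without it. Of 95 values refitted with the block, 92 kept sign and call. *Haus6* between *Ago2* ADH and *Ago2* null became -0.026, *Aurka* in *Dicer* KO had an adjusted p of 0.0101 and *Pcnt* for the interaction 0.0188.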
